A study of Homo sapiens with 4 samples.

Results

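The genes described here are 36 human genes of sugar breakdown and of the response to low oxygen. They were chosen by name, with earlier results of these data known: 16 glycolytic enzymes, 4 transporters of glucose or lactate and 16 other genes of the hypoxia response. They were read on 4 single-colour Illumina bead arrays, each with 47322 probes, in cells of RUES2, an established line of human embryonic stem cells. Lentivirus carrying a short hairpin RNA (shRNA) had been brought into the undifferentiated cells, which were selected with puromycin, directed along the cardiac lineage and taken at day 5, the stage named for cardiovascular progenitors. The TMEM88 shRNA group held 2 arrays, 1 with hairpin 691 and 1 with hairpin 94, both directed at TMEM88, whose membrane protein is known to dampen Wnt signals, and the other group held 2 arrays with a control shRNA (controls 1 and 2). All 4 samples thus share the viral transduction, the selection and the protocol, and the spread of the TMEM88 shRNA group contains the difference between its hairpins. The sources used here do not give the target of the control shRNA or the oxygen and glucose of the cultures. The labels do not say whether the samples are separate cultures, so p-values reflect only the spread among these arrays, which may be technical.

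Probes named for 33 of the 36 genes were present among 20046 named genes, and SLC16A1, SLC16A3 and CA9 were not analysed here because no probe carried their name. A gene was tested where 2 or more of the 4 arrays detected a probe of it at a p below 0.01. That left 31 of the 36 (16 enzymes, 2 glucose transporters and 13 other hypoxia response genes) among 10377 tested genes. All but 1 of these 31 were detected on all 4 arrays, so for 30 of them the filter did not depend on the group. MXI1, the exception, was detected on both TMEM88 shRNA arrays and on control 1. PDK1 and EGLN3 had a probe that was detected on 1 array each and were not tested.

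Glycolysis splits glucose to pyruvate in the cytosol, and lactate dehydrogenase turns pyruvate to lactate when it is not passed to mitochondria. Low oxygen stops the prolyl hydroxylases (EGLN genes) that mark the factor HIF1A for destruction, and HIF1A then binds short DNA motifs and switches on many glycolytic enzymes, glucose transporters, the vessel growth factor VEGFA and a set of stress genes. Pluripotent stem cells are known for a high use of glycolysis, which gives way to mitochondrial respiration as cells become heart muscle.

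The hypoxia and glycolysis genes stood mostly higher with the TMEM88 hairpins, and the enolase gene ENO2 was the single member that rose past the threshold of a limma adjusted p of 0.05. Differences are log2 levels of TMEM88 shRNA minus control after background correction and quantile normalization, with their standard error (SE). The members were chosen with earlier results of these data known, so the shares and medians that follow are descriptions and carry no test. Of the 31 tested members 28 had a positive difference (90.3%), where 50.1% of all 10377 tested genes did. The median was 0.28 over the 16 enzymes and 0.67 over the 13 other hypoxia response genes, against 0.0012 over all tested genes. After normalization both TMEM88 shRNA arrays lay above both controls for 19 of the 31 members and below both for 1, and this held for 25.2% and 24.9% of all tested genes. In limma 1 of the 31 rose and none fell, beside 0.954% of all tested genes that rose and 1.02% that fell. At an unadjusted p under 0.05 the members numbered 11 higher and 0 lower, beside 9.53% and 8.81% of all tested genes. Thus 30 of the 31 did not pass singly. In the scanner signal before normalization 18 members had both hairpins above both controls, beside 23.2% of all tested genes. In bulk RNA, fewer cells of a type and less RNA per cell cannot be told apart.

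**Figure D1:**
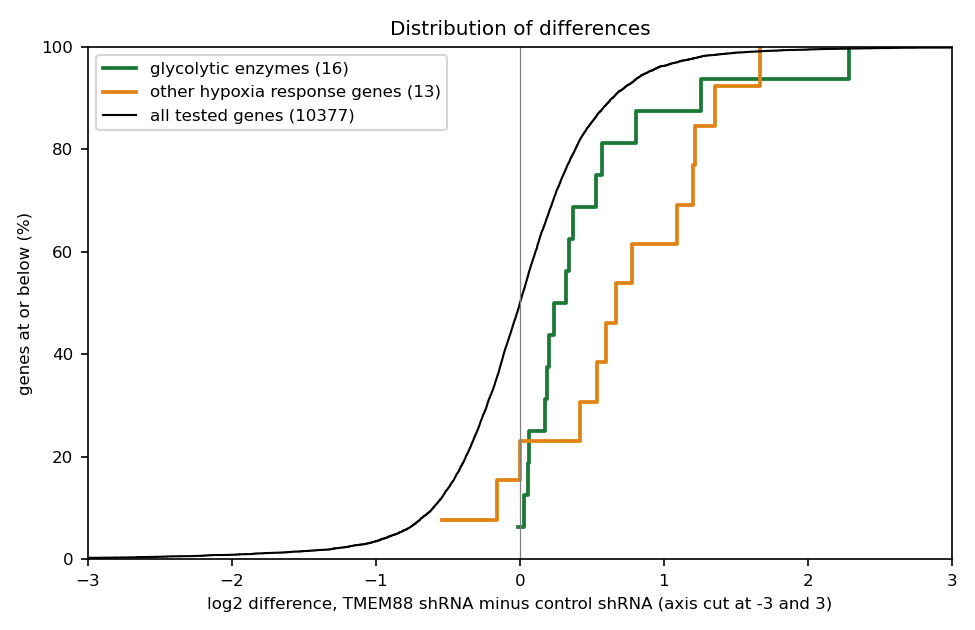
Cumulative share of genes (percent, vertical axis) at or below each log2 difference, TMEM88 shRNA minus control shRNA (horizontal axis), for the 16 tested glycolytic enzymes, the 13 tested hypoxia response genes and all 10377 tested genes. The curve of all tested genes crosses its middle near 0, that of the enzymes at 0.28 and that of the hypoxia genes at 0.67.

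The target gene and the state of the cells set the frame for these values. TMEM88 gave signals of 360.7 with hairpin 691 and 1329.7 with hairpin 94, against 2292.8 and 2987 in controls 1 and 2. After background correction and normalization its level was 9.62% of the control geometric mean with hairpin 691 and 52.9% with hairpin 94. TMEM88 itself did not pass when the hairpins were taken as 1 group (-2.15 ± 0.71, limma adjusted p = 0.187). Set against the controls singly, TMEM88 passed with hairpin 691 (-3.38, limma adjusted p = 0.0146) and not with hairpin 94 (-0.92, limma adjusted p = 0.591). Between 15300 and 16516 of the 47322 probes were detected per array, with median signals between 130.9 and 135.7. Of 12 cardiovascular progenitor markers 10 were detected on at least 1 array, with TBX5 and TBX20 undetected on all 4. Of the 10 tested, 3 fell and none rose, beside 1.02% and 0.954% of all tested genes. On both hairpin arrays 6 lay below both controls, beside 24.9% of all tested genes, and the median log2 difference was -1.0. HAND2, a transcription factor of the forming heart, fell by 3.74 ± 0.25 (limma adjusted p = 0.00406) and was detected on 1 of the 2 TMEM88 shRNA arrays. MEF2C, a muscle transcription factor detected on neither TMEM88 shRNA array, fell by at least 3.14-fold (limma adjusted p = 0.00571), and PDGFRA, a growth factor receptor gene, by 1.39 ± 0.23 (limma adjusted p = 0.0347). GATA4, GATA5 and GATA6 stood at -1.17, -0.83 and -1.29 without passing. HAND1, ISL1, NKX2-5 and KDR stood at 0.71, 0.03, 0.97 and 1.20, also without passing. Of these, NKX2-5 alone lay above both controls on both hairpin arrays. The summed normalized intensity of the list was 9359 and 10042 on the TMEM88 shRNA arrays and 8427 and 12498 on the controls. Primitive streak markers (8 of 11 detected; MESP2, TBXT and FGF4 undetected) summed to 6845 and 5157 with the TMEM88 hairpins, against 902 and 940 in controls. Pluripotency markers (6 of 9 detected; NANOG, DPPA2 and PRDM14 undetected) summed to 16698 and 11947, against 10567 and 11408. Endoderm markers (8 of 9 detected; AFP undetected) summed to 3409 and 2766, against 1656 and 1024. Summed markers of earlier stages and of endoderm were thus higher on both hairpin arrays than on either control, as were most members. For pluripotency, 11947 with hairpin 94 and 11408 in control 2 lay closer together than the controls did. Such a sum follows its brightest genes. Of 7 tested streak markers 3 rose, beside 0.954% of all tested genes, while none of 6 tested pluripotency and 8 tested endoderm markers passed. Several progenitor markers were lower, while others had a positive difference. The part of these markers in the members' differences was not tested.

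No window was at hand for VEGFA, BNIP3L, NDRG1 and SLC2A3. Of the other members, promoters are shown for the 3 largest differences of each role, enzymes and transporters (ENO2, HK2 and ALDOA) and other hypoxia response genes (ADM, ANKRD37 and DDIT4), among members with a match to ACGTG or GCGTG, the forms of the short motif that HIF factors bind. Sequences come from RefSeq (GRCh38.p14) and give the 250 bases before the annotated gene start, 5′ to 3′ along the gene, with matches on either strand in capitals. On GRCh38.p14 the windows are chr12:6914330-6914579 for ENO2, chr2:74833877-74834126 for HK2, chr16:30064029-30064278 for ALDOA, chr11:10304823-10305072 for ADM, chr4:185396591-185396840 for ANKRD37 and chr10:72273674-72273923 for DDIT4, all on the plus strand.
ENO2: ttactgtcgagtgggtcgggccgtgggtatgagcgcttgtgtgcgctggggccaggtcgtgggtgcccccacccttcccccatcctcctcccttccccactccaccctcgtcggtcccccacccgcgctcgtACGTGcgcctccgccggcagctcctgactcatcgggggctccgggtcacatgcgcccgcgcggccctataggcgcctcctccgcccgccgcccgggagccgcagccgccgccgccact
HK2: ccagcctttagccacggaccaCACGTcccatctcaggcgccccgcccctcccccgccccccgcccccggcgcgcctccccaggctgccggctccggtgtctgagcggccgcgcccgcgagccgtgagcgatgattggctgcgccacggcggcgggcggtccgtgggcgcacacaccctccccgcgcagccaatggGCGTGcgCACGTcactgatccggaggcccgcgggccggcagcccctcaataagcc
ALDOA: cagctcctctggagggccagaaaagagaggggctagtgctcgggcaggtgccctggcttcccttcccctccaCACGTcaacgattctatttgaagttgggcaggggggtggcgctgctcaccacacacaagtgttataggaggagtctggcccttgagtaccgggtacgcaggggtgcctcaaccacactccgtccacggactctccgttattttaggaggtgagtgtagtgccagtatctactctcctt
ADM: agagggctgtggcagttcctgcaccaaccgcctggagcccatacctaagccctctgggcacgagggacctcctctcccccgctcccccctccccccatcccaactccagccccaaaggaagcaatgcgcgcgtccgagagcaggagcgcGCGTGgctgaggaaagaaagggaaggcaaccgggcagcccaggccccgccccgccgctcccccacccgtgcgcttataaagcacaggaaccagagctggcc
ANKRD37: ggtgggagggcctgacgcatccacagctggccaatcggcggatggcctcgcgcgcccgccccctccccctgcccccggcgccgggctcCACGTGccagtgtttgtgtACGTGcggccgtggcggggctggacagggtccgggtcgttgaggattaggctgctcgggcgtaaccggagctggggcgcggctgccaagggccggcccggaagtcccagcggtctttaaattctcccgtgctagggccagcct
DDIT4: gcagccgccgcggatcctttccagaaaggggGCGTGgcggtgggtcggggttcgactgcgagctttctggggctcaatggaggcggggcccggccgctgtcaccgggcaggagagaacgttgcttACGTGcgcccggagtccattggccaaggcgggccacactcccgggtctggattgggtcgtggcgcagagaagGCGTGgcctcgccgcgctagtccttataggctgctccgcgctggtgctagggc
ENO2 had 1 match, an ACGTG beginning 118 bases before the start. HK2 had 3, beginning 229, 55 and 48 bases before it, and ALDOA 1, at 178. ADM had a single GCGTG at 101, ANKRD37 had 3 matches, at 162, 161 and 143, of which the first pair is a palindrome read on both strands, and DDIT4 had 3, at 219, 125 and 53. A match is a description of letters and not of binding.

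Across the 27 tested members whose window was in the table, 18 held at least 1 match to either motif (66.7%), beside 58.0% of 8438 tested genes with a window and 43.1% of all 27305 windows. ACGTG alone, on either strand, was in 14 of the 27 (51.9%), beside 23.7% of tested genes. GCGTG went the other way, in 10 of the 27 (37.0%), beside 45.8% of tested genes. Windows of these members were also richer in G and C, with a median of 71.2% against 64.8% over tested genes, and the genes were chosen as known hypoxia and glycolysis genes, so these shares carry no test. Matches and the size of the difference did not go together in every gene. LDHA had 5 matches to ACGTG and a difference of -0.01, ALDOC had 5 matches to either motif and 0.06, while MXI1 and SLC2A1 had none and stood at 1.22 and 0.65.

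Among the enzymes, ENO2 differed most. ENO2 (gene ID 2026, chromosome 12) encodes gamma enolase, the enolase isozyme best known from neurons, which makes phosphoenolpyruvate. Its probe gave signals of 874.2 with hairpin 691 and 582.6 with hairpin 94, against 234.2 and 231.6 in controls 1 and 2. The controls lay within 0.04 of each other on the log2 scale and both hairpins stood far above them. The ENO2 difference was 2.29 ± 0.26 (SE, n = 2 per group), 4.88-fold, with a limma adjusted p of 0.0128, and it ranked 34 among the differences of 10377 genes from the top. ENO2 lost its call in the fit without hairpin 691 (2.02, limma adjusted p = 0.079), which is the test of hairpin 94 alone, and with no detection filter (limma adjusted p = 0.0669). Its log2 difference was 1.63 without background correction and 1.64 from the deposited matrix, and both passed. ENO1, the enolase of most tissues, had signals of 17952.8 and 20383.2 with the TMEM88 hairpins, against 16149.9 and 17734.3 in the controls, and a difference of 0.07 ± 0.23.

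HK2 and HK1 encode hexokinases, which trap glucose in the cell as glucose 6-phosphate. HK2, the isozyme that low oxygen and growth signals induce, gave 778.9 and 655.1 with hairpins 691 and 94, against 494.5 and 280.8 in controls 1 and 2. Both hairpins lay above both controls, whose own gap of 1.07 on the log2 scale was close to the difference between groups. That difference was 1.26 ± 0.37 for HK2 (limma adjusted p = 0.146), and 0.97 both without background correction and from the deposited matrix. The second HK2 probe, also detected on all arrays, gave 0.29, so the size for HK2 differed between probes. For HK1, the broadly active isozyme, signals were 1905.7 and 1676 against 1755 and 1599.6, with a difference of 0.18 ± 0.23.

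The phosphofructokinase genes PFKL, PFKM and PFKP encode the liver, muscle and platelet forms of the enzyme that commits sugar to glycolysis. PFKL gave 506.1 and 444.7 with the TMEM88 hairpins, against 396.4 and 328.2 in the controls, a difference of 0.57 ± 0.24 (limma adjusted p = 0.262). PFKP gave 1984.2 and 1711.1, against 1768.7 and 1072.6, a difference of 0.53 ± 0.31 (limma adjusted p = 0.417). The PFKP difference was 0.15 without control 2 and 0.91 without control 1 (limma adjusted p = 0.0453), so it rests largely on control 2. For PFKM the signals were 1254.2 and 959.2 against 1021.3 and 867.3, a difference of 0.32 ± 0.24. All of these forms thus had a positive difference and none passed. Only PFKL kept both hairpins above both controls in the scanner signal before normalization.

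Aldolase splits the 6-carbon sugar, and ALDOA is its main isozyme. ALDOA signals were 5155.8 with hairpin 691 and 5600.7 with hairpin 94, against 2385.1 and 4086.6 in controls 1 and 2. Both hairpins exceeded both controls, and most of the difference of 0.81 ± 0.32 (limma adjusted p = 0.246) lay against control 1, the lower control. A second probe of ALDOA gave 0.73, close to the first. The isozyme gene ALDOC, active in brain, had 1822.3 and 2221.5 against 1749.4 and 2309.4, with overlapping groups and a difference of 0.06 ± 0.27.

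None of the remaining enzymes passed. GPI, which interconverts the phosphates of glucose and fructose, stood at 0.34 ± 0.31, and PGAM1, a phosphoglycerate mutase, at 0.37 ± 0.26. PGK1, a phosphoglycerate kinase and a common hypoxia target, gave 4116.2 and 6289.5 with the hairpins, against 3405.7 and 5472.2 in controls, a difference of 0.24 ± 0.34. Its groups overlapped, and the second PGK1 probe gave -0.26. TPI1, triosephosphate isomerase, stood at 0.20 ± 0.24 and at 0.00077 by its second probe.

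GAPDH, the dehydrogenase often used as a reference gene, had signals of 16050.6 and 16111.6 with the TMEM88 hairpins, against 13880.4 and 12510.5 in controls. Its difference was 0.19 ± 0.23, and its other probes gave 0.25 and 0.32. The lactate dehydrogenase genes showed no shift in either direction that stood out of the array spread. LDHA, the form that favours lactate production and a common HIF target, had 11182.5 and 16654.7, against 13186.8 and 12393.6, so that the hairpins lay on both sides of the controls (-0.01 ± 0.27). For LDHB, the heart form, signals were 4633.5 and 5118.2 against 5137.6 and 4243.7 (0.03 ± 0.24). The 95% limma intervals reached from -0.65 to 0.63 for LDHA and from -0.54 to 0.60 for LDHB, so shifts of that size could not be told from none. Probe sequences were not used here, and binding of transcripts from related pseudogenes to the probes of abundant enzymes such as GAPDH was not tested.

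Glucose enters these cells through the GLUT proteins. SLC2A1 encodes GLUT1, the widely used carrier that HIF induces, and gave 2675.6 and 2655.7 with hairpins 691 and 94, against 2036.3 and 1596.2 in controls 1 and 2. The hairpin arrays coincided and both lay above the controls, with a difference of 0.65 ± 0.24 (limma adjusted p = 0.229). SLC2A3 encodes GLUT3, a carrier with high affinity for glucose that is known from neurons and stem cells. Its signals were 17503.2 and 17767.2 against 11650.3 and 16474.2, a difference of 0.22 ± 0.25.

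**Figure D2:**
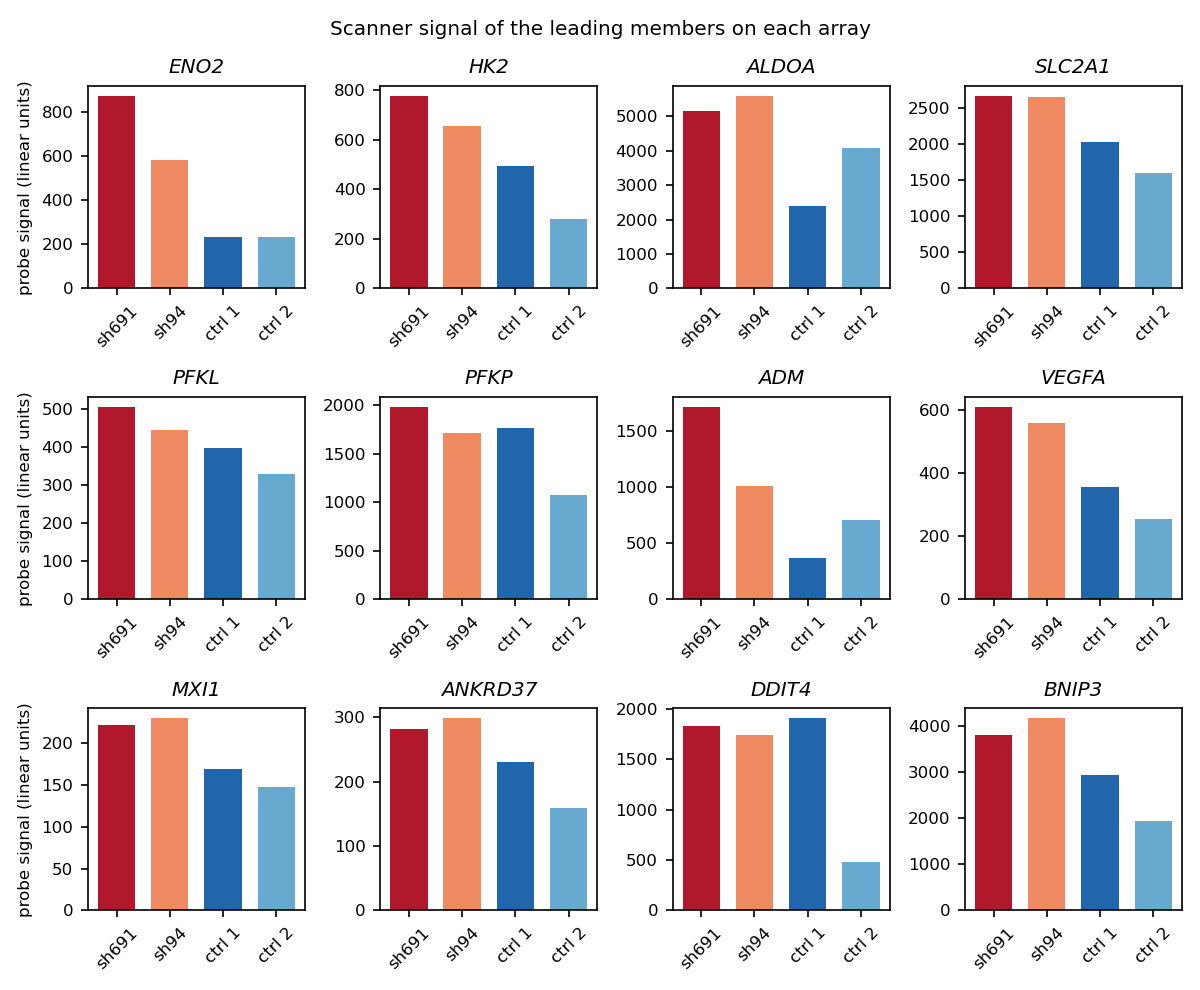
Scanner signal (linear units, bars from 0, no background correction) of the 6 enzymes or transporters and the 6 other hypoxia response genes with the largest absolute differences, on the arrays of hairpins 691 and 94 and of controls 1 and 2. ENO2 reads 874.2 and 582.6 with the hairpins beside 234.2 and 231.6 in the controls, while for DDIT4 control 1 reads 1909.8, above both hairpins.

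Secreted factors led the hypoxia response genes. ADM encodes adrenomedullin, a peptide that widens and builds vessels, and gave 1714.8 with hairpin 691 and 1007.7 with hairpin 94, against 371 and 709.5 in controls 1 and 2. Both hairpins lay above both controls, which were 1.26 apart on the log2 scale. The ADM difference of 1.67 ± 0.45 (3.18-fold) did not pass (limma adjusted p = 0.128). VEGFA, the vascular endothelial growth factor and a classic HIF target, gave 610.5 and 559.9 against 357.6 and 253.3. Its hairpin arrays lay 0.01 apart on the log2 scale and above the controls, with a difference of 1.36 ± 0.29 (2.57-fold, limma adjusted p = 0.0737). A second VEGFA probe gave 1.47. VEGFA passed with a larger offset of 50 (limma adjusted p = 0.0467) and with an intensity trend and a robust prior in the variance model together (limma adjusted p = 0.0451). It was further from passing with no detection filter (limma adjusted p = 0.180). The VEGFA difference was 0.99 both without background correction and from the deposited matrix, and neither passed.

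Feedback and regulatory genes came next. MXI1 encodes a partner of MAX that opposes MYC and is induced by HIF. It gave 221.2 and 229.7 with the hairpins, against 168.9 and 146.9 in the controls, the last of which was not detected, and its difference was 1.22 ± 0.30 (limma adjusted p = 0.102). ANKRD37, an ankyrin repeat gene known as a direct HIF target, gave 281.9 and 299.4, against 230.4 and 158.6, and a difference of 1.21 ± 0.41 (limma adjusted p = 0.196). Both genes are dim, close to background, and their differences shrank to 0.50 and 0.61 without background correction.

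DDIT4 encodes REDD1, which restrains mTOR under low oxygen and other stress. Its signals were 1827.3 with hairpin 691 and 1734 with hairpin 94, against 1909.8 in control 1 and 477.3 in control 2. Control 2 alone stood apart, 2.23 below control 1 on the log2 scale. The DDIT4 difference was 1.09 ± 0.64 (limma adjusted p = 0.425), and without control 2 it was -0.02, so it rests on that array.

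Mitochondrial removal genes had smaller differences. BNIP3 and BNIP3L encode related proteins of the outer mitochondrial membrane that mark mitochondria for autophagy. BNIP3 gave 3787.2 and 4173.4 with the hairpins, against 2929.1 and 1943.3 in the controls, a difference of 0.78 ± 0.28 (limma adjusted p = 0.217). For BNIP3L the signals were 1029.7 and 1084.1 against 897.9 and 698.2, a difference of 0.54 ± 0.25, and a dimmer second probe gave -0.30. Both genes kept both hairpins above both controls by their brighter probe.

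NDRG1, a growth arrest gene widely used as a hypoxia marker, gave 293 and 280.4 with the hairpins, against 217.9 and 221.1 in controls. The arrays of each group lay close together and the groups were apart, with a difference of 0.67 ± 0.23 (limma adjusted p = 0.196). NDRG1 is dim too, and its difference was 0.38 without background correction and 0.39 from the deposited matrix. P4HA1 and P4HA2 encode catalytic subunits of the collagen prolyl hydroxylase. P4HA1 gave 1010.5 and 1159.2 against 695.6 and 886.9, a difference of 0.60 ± 0.27, and P4HA2 715.5 and 664.4 against 501.7 and 629.6, a difference of 0.42 ± 0.25. The hairpins lay above the controls for both genes, and neither passed.

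Of the 31 tested members 3 had a negative difference, namely LDHA, described above, PDK3 and EGLN1. PDK3 encodes a kinase that shuts pyruvate dehydrogenase. Its brighter probe gave 600.8 and 590.3 with the hairpins, against 1113.2 and 647.7 in the controls (-0.54 ± 0.32, limma adjusted p = 0.424). It was the 1 member with both hairpins below both controls, yet its second probe gave 0.17. EGLN1 encodes PHD2, the main oxygen sensor of the HIF pathway, and stood at -0.16 ± 0.23. HIF1A, the factor itself, gave 223.4 and 234 against 236.1 and 216.7, a difference of 0.0023 ± 0.25. HIF1A is regulated mainly as a protein, which these arrays do not measure. Of the untested genes, PDK1 was detected with hairpin 691 alone (159.2, against 135.9 with hairpin 94 and 128.9 and 149.5 in controls). EGLN3, a hydroxylase gene that HIF induces, was detected in control 2 alone (229), with 129.6 and 127.3 on the TMEM88 shRNA arrays and 136.9 in control 1.

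**Figure D3:**
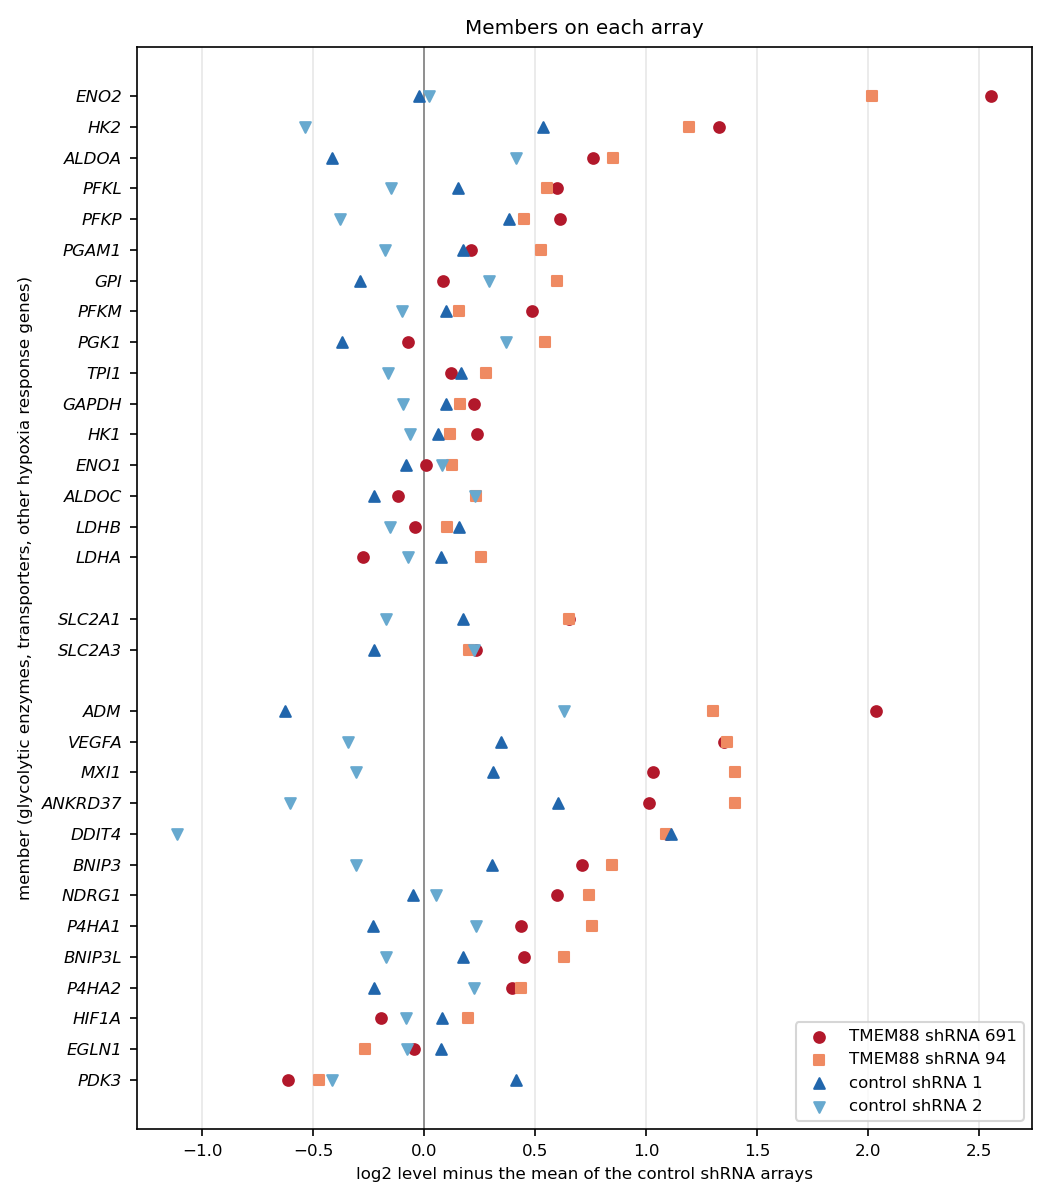
Log2 level of each of the 31 tested members minus the mean of the control arrays (horizontal axis), 1 row per gene in its role group, with 1 point for each of the 4 arrays. Both hairpins stand right of both controls for 19 members, ENO2 furthest, and the controls spread most for DDIT4, by 2.23.

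Variation among the control arrays bears on every one of these values. Over the 31 members the median absolute gap between controls was 0.45, beside 0.34 over all tested genes, while the hairpins differed by a median of 0.16, beside 0.21. Control 1 exceeded control 2 for 20 of the 31 members and for 5446 of the 10377 tested genes. Leaving out control 1 gave 8 risen members (beside 7.32% of all tested genes that rose in that fit), leaving out control 2 gave 3 (beside 2.96%), and leaving out hairpin 691 or 94 gave 0 and 1 (beside 0.145% and 0.337%). Without control 1 the risen members were ENO2, HK2, PFKP, VEGFA, BNIP3, ANKRD37, DDIT4 and MXI1, and without control 2 they were ENO2, ALDOA and ADM. Without control 1 and without control 2 the differences were 1.799 and 0.72 for HK2, 1.81 and 0.60 for ANKRD37, 1.09 and 0.47 for BNIP3, 0.39 and 1.22 for ALDOA and 1.04 and 2.30 for ADM. For ENO2 they were 2.27 and 2.31. In such a fit 1 array stands alone in its group, so the residual spread comes from the remaining pair. The median of the enzymes lay between 0.21 and 0.36 in these fits and that of the hypoxia genes between 0.60 and 0.75.

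**Figure D4:**
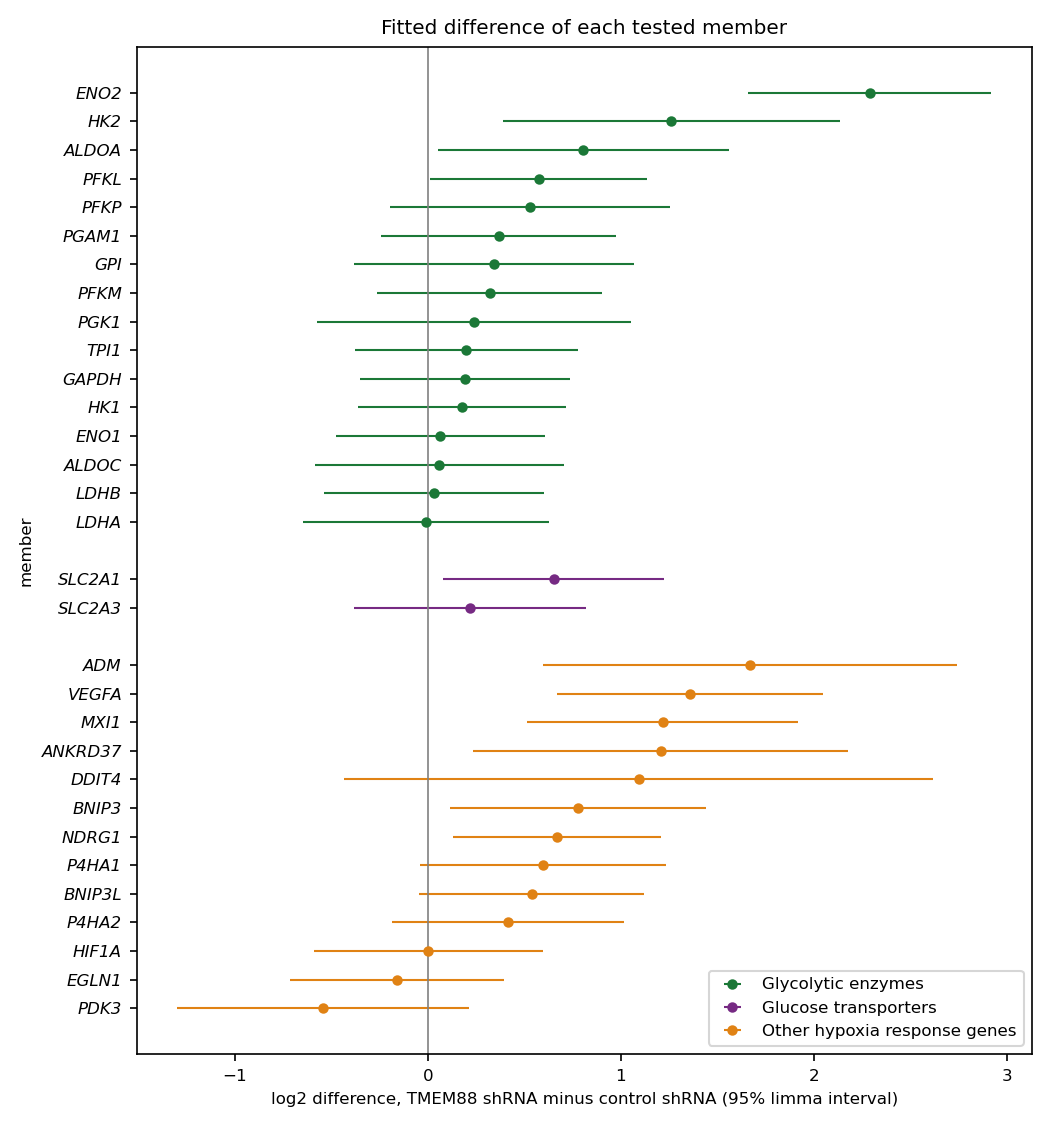
Log2 difference of TMEM88 shRNA minus control shRNA (points) with its 95% limma interval (bars) for the 31 tested members in their role groups. The interval of ENO2 reaches from 1.66 to 2.92, and that of DDIT4, from -0.43 to 2.62, includes 0.

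Set against the controls singly, the hairpins gave the following values, which share those controls. With hairpin 691 the median difference was 0.22 over the enzymes and 0.60 over the hypoxia genes, and with hairpin 94 it was 0.36 and 0.75. The corresponding medians over all tested genes were 0.0091 and -0.0021. Positive differences numbered 24 of 31 with hairpin 691 (beside 50.9% of all tested genes) and 29 of 31 with hairpin 94 (beside 49.9%). Of the members, ENO2 rose with hairpin 691 (2.56, limma adjusted p = 0.0273; 0.337% of all tested genes rose), a call that ended with no background correction and with no detection filter, while hairpin 94 gave 2.02 (limma adjusted p = 0.079; 0.145% of all tested genes rose). ADM stood at 2.04 with hairpin 691 and 1.30 with hairpin 94. In HK2 the values were 1.33 and 1.20, in VEGFA 1.35 and 1.37, in ANKRD37 1.01 and 1.40 and in MXI1 1.03 and 1.40. Between the hairpins limma called no member and none of the 10377 genes, and at an unadjusted p under 0.05 it called 0 members and 98 genes. Hairpin 691 exceeded hairpin 94 for 12 of the 31 members and for 5314 of the 10377 tested genes, with 1 array for each hairpin.

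The rest of the pathway was read from 6 companion lists with 168 genes. Of 14 tested other genes of glycolysis and gluconeogenesis none passed limma, 6 were positive and the median was -0.10. At an unadjusted p under 0.05 in limma 1 was higher and 3 were lower, beside 9.53% and 8.81% of all tested genes. The largest positive difference was that of PFKFB4, a regulator of fructose 2,6-bisphosphate that HIF induces (0.79 ± 0.41), and the most negative that of ENO3, the muscle enolase, with log2 levels of 9.67 and 10.07 with the hairpins against 10.98 and 11.68 in controls (-1.46 ± 0.31, limma adjusted p = 0.0735). The enolase genes thus had differences of 2.29 (ENO2), 0.07 (ENO1) and -1.46 (ENO3). PKM, pyruvate kinase of muscle and stem cells, singled out after its values were seen, stood at 0.28 ± 0.25. Of 7 pentose phosphate genes none passed limma, 0 at an unadjusted p under 0.05 too, and 5 were positive, with a median of 0.19 and extremes in H6PD (0.58 ± 0.43) and RPIA (-0.49 ± 0.24).

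Of 20 tested genes of pyruvate entry and the citric acid cycle 7 were positive, with a median of -0.12, and none passed limma. At an unadjusted p under 0.05 in limma 0 were higher and 2 lower, beside 9.53% and 8.81% of all tested genes, so the lower count was near that share. The median was -0.16 with hairpin 691 (7 of 20 positive) and 0.03 with hairpin 94 (11 of 20 positive). MPC1, a subunit of the carrier that brings pyruvate into mitochondria, had log2 levels of 6.99 and 7.54 with the hairpins, against 8.68 and 8.69 in controls, a difference of -1.42 ± 0.27 (limma adjusted p = 0.0558). MPC2, its partner subunit, singled out after its values were seen, had 8.53 and 8.57 against 9.44 and 9.85 (-1.10 ± 0.25, limma adjusted p = 0.0886). Both subunits were lower on both hairpin arrays than on either control, and neither passed. SUCLG2, of the citric acid cycle, had the largest positive difference (0.45 ± 0.26).

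Of the 9 tested sugar and monocarboxylate transporters with TXNIP, the arrestin that holds glucose uptake in check, TXNIP alone fell (log2 difference -4.09 ± 0.40, limma adjusted p = 0.0068). Its log2 level averaged 7.52 ± 0.08 with the hairpins and 11.61 ± 0.86 in controls (SD, n = 2 each). The list median was -0.05.

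Of 16 tested genes of the HIF machinery none passed limma and 5 were positive, with a median of -0.21. At an unadjusted p under 0.05 in limma 2 were higher and 1 was lower, beside 9.53% and 8.81% of all tested genes. SIAH2, a ubiquitin ligase that targets EGLN proteins, had the largest positive difference (1.07 ± 0.26, limma adjusted p = 0.0995). EPAS1, which encodes HIF2A, was detected on both controls and on neither TMEM88 shRNA array, which gives a level at least 1.46-fold lower in TMEM88 shRNA cells (limma adjusted p = 0.095). For such a bound each array of the undetected group is raised to its lowest detected probe where the gene lies under it. Of 47 tested other HIF targets 24 were positive, with a median of 0.0032, 2 rose and 1 fell. At an unadjusted p under 0.05 in limma 8 were higher and 10 lower, beside 9.53% and 8.81% of all tested genes. LOX, lysyl oxidase, undetected in both controls, rose by at least 6.55-fold (limma adjusted p = 0.00571), and the chemokine receptor gene CXCR4 rose by 2.05 ± 0.28 (limma adjusted p = 0.0207). CA12, a carbonic anhydrase gene, fell by 1.93 ± 0.28 (limma adjusted p = 0.0232) and was detected on 1 of the 2 TMEM88 shRNA arrays, so its size is uncertain. The larger list of HIF targets was thus balanced in direction, with its median near that of all genes, unlike the 13 hypoxia members. That contrast was not tested.

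**Figure D5:**
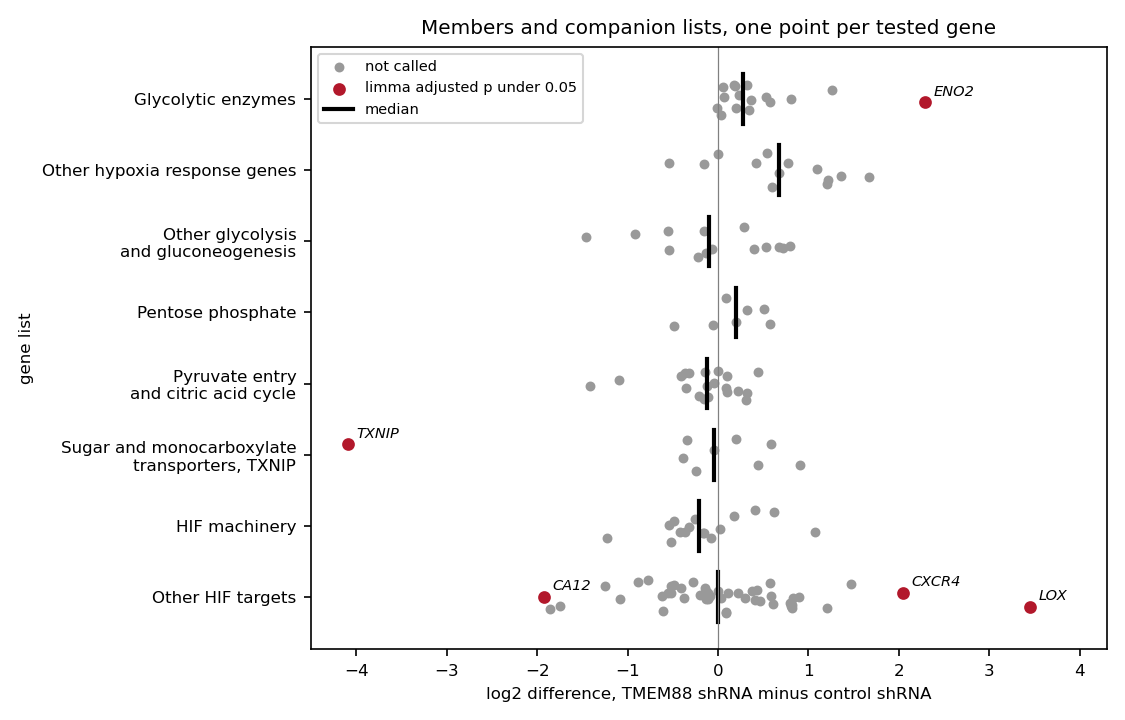
Log2 difference of TMEM88 shRNA minus control shRNA (horizontal axis) for the tested genes of the member groups and of the 6 companion lists, 1 point per gene, spread vertically at random within each list, with black bars at the medians and red points for genes with a limma adjusted p under 0.05. The medians are 0.28 for the enzymes and 0.67 for the hypoxia members and lie between -0.21 and 0.19 for the other lists.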

How the data were processed

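Biotin-labelled cRNA of 4 samples was hybridised to single-colour Illumina arrays, per the labels. Per the file headers, the scanner table deposited by the authors lists for each probe a linear signal intensity, not normalized, and a detection p-value. The deposited matrix holds log2 values with near-equal medians (7.02), made by a method not given in the sources used here. Per the submitters' processing notes, lumi and limma 3.12.3 were used, with no role stated.

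Here neqc (limma 3.58.1, R 4.3.3) corrected the background, with negative controls inferred from detection p-values, added an offset of 16 and quantile-normalized the arrays. Platform annotation named 30113 probes by 1 symbol, 8 by several and 17201 by none. For 30074 of the probes with 1 symbol the gene ID was found among the RefSeq genes of GRCh38.p14, whose symbols were used for names. Each gene was read by its brightest passing probe. The 2-sided test used lmFit and eBayes and Benjamini-Hochberg adjustment over 10377 genes, with 2 residual and 4.84 prior degrees of freedom. Single hairpins used a fit with 3 groups, which assumes that their arrays vary as the controls do. The fit was also run on simulated data with independent noise and the same added effect on both TMEM88 shRNA arrays. That setting holds no effect particular to 1 hairpin, so it does not check the fit for such effects. Members, lists and tests were chosen with earlier results of these data known.

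Named are all members and TMEM88, and of each companion list up to 3 called genes, or else its largest positive and negative differences. Motifs were searched in the 250 bases before each gene start. Alternatives covered background correction, the deposited matrix, the detection filter, the probe, the offset, the variance model and leaving out each array. The number of arrays limits the precision. Figures were drawn with matplotlib 3.10.9.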

Additional observations from a re-analysis of the deposited data

How the results depend on the processing

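With 2 arrays a group, the number of arrays limits every value, and dim genes near background limit fold sizes. No paired analysis was possible because the groups share no replicate code in the labels. The count of risen members, 1 as reported, was 0 with no detection filter, 2 with an offset of 50, 2 with an intensity trend and robust prior, and between 0 and 8 when an array was left out; the count of fallen members was 0 in every alternative run. The count of called genes over all tested, 205 as reported, was 19 with no detection filter, 309 with the trend and robust prior and between 50 and 1453 when an array was left out. Members called with hairpin 691 alone, 1 as reported (ENO2), were 0 with no background correction and 0 with no detection filter. The median of the hypoxia members, 0.67 as reported, was 0.50 without background correction and 0.52 from the deposited matrix. Over all members the median of 0.42 was 0.32 by the second brightest probe and between 0.39 and 0.55 when an array was left out. The median of all tested genes, which quantile normalization holds near 0, lay between -0.032 and 0.030 with an array left out. Between 24 and 29 members had a positive difference under every alternative. Differences that changed sign were those of PGK1 (-0.0089 by the mean of probes and -0.26 by the second probe), HIF1A (-0.062 and -0.13), PDK3 (0.17 by the second probe) and BNIP3L (-0.30 by the second probe). When an array was left out, the range was -0.17 to 0.29 for ALDOC, -0.13 to 0.61 for PGK1, -0.015 to 0.15 for ENO1, -0.28 to 0.26 for LDHA, -0.12 to 0.19 for LDHB, -0.0062 to 0.44 for SLC2A3, -0.021 to 2.21 for DDIT4 and -0.19 to 0.20 for HIF1A. The cause of these changes was not tested. Of 255 values for single members or TMEM88 under the other 8 alternatives, 246 kept direction and side of the threshold. Much of this was fixed in advance, so the count does not measure robustness. Changing the detection filter or the variance model left each of these differences unchanged. The probe alternatives did the same for genes with 1 passing probe.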
